A study of Homo sapiens with 6 samples.

Results

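MicroRNA hairpin loci were examined on arrays of ovarian cancer cell lines. The loci were chosen by their measured signal: they were all genes on the array whose annotated symbol is that of a microRNA hairpin and whose mean log2 signal over the 6 arrays was at least 5, leaving out MIR135A1, the hairpin of the transfected microRNA. Of 1071 hairpin symbols, 213 met this rule, and 858 lay below it. The arrays came from 3 established human cell lines labelled as ovarian cancer: SKOV-3, OVCAR-3 and ES-2. For each line there was 1 array after transfection of miR-blank (the control) and 1 after miR-135a-3p. The groups were therefore 3 miR-blank and 3 miR-135a-3p arrays, and the lines are the replicates of the transfection (n = 3). No source used here gives the kind of transfected material, its dose or the time of harvest. All values are normalised log2 signals. A transfection difference is miR-135a-3p minus miR-blank.

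MicroRNAs are cut from hairpins in longer primary transcripts by the Microprocessor, exported and cut again to a mature arm. Bases 2 to 8 of the mature arm, its seed, direct it to target RNAs. Many hairpins lie inside another gene and are transcribed with it. On a whole-transcript array, a hairpin probe set can report the primary transcript, the hairpin or the RNA of an overlapping gene. It is not a measure of the mature microRNA, and how far RNA as short as a hairpin was labelled was not tested. The array values carry no detection calls, and whether a locus was above background was not tested; the threshold of 5 lay above the array medians of 4.16 to 4.23. Of the 213 loci, 208 lay above the array median on every array and 166 were at or above 5 on every array.

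Hairpins of the MIR3689 loci on the array are shown because they hold copies of the same stretch. They come from RefSeq (GRCh38.p14), run 5′ to 3′, and lie on the minus strand of chromosome 9 within chr9:134849487-134850804, a stretch of 1318 bases that overlaps the lncRNA gene LOC101448202. Capitals mark UGGGAGGUGUGAU, at 13 bases the longest stretch that the 6 RefSeq hairpins of the family share. These are the hairpins printed below and that of MIR3689C (chr9:134849298-134849369), which is not among the MIR3689 symbols on the array. For MIR3689F, which is on the array, no RefSeq hairpin was found.
MIR3689A: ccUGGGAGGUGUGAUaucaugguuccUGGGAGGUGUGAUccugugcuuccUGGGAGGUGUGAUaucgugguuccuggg
MIR3689B: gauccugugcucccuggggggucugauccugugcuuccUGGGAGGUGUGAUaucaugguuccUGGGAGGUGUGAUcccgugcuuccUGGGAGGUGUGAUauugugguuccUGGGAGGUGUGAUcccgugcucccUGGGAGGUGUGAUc
MIR3689D1: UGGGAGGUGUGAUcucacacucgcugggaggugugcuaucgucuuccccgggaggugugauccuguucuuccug
MIR3689D2: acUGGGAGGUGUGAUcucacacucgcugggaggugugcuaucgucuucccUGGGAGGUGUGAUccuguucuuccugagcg
MIR3689E: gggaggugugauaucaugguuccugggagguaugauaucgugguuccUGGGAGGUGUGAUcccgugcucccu
The stretch occurred 3 times in MIR3689A, 5 times in MIR3689B, 2 times each in MIR3689D2 and MIR3689C and 1 time each in MIR3689D1 and MIR3689E. Searched on both strands, it was held by 6 of 1560 RefSeq hairpins (0.385%), all of the MIR3689 family. The mature arms of MIR3689A, MIR3689B, MIR3689E and MIR3689F share the seed GUGAUAU. In the next lines capitals mark the seed of each arm: 2 arms with that seed, the arm of MIR3689D1 and MIR3689D2, which has another, and the transfected microRNA.
hsa-miR-3689a-5p: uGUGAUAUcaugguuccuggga
hsa-miR-3689f: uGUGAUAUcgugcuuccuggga
hsa-miR-3689d: gGGAGGUGugaucucacacucg
hsa-miR-135a-3p: uAUAGGGAuuggagccguggcg
The printed 5p arm is the same in MIR3689A, MIR3689B and MIR3689E. None of the 282 mature arms of the 213 loci carried the miR-135a-3p seed. Its complement, UCCCUAU, was searched on the printed strand and was in 0 of the 185 members' hairpins with a sequence and in 5 of 1560 hairpins (0.321%).

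All 6 MIR3689 symbols on the array were among the 213 loci, and all 6 had their lowest signal on the same array, that of SKOV-3 after miR-blank, 5 of them by at least 1.66 on the log2 scale. With miR-blank first and miR-135a-3p second, MIR3689A read 9.56 and 9.29 in ES-2, 9.57 and 8.80 in OVCAR-3, then 6.92 and 9.53 in SKOV-3. The SKOV-3 miR-blank value lay 1.87 below the lowest of the other 5 arrays, so the transfected and control arrays overlapped but this array stood apart. MIR3689B read 9.35 and 9.08 in ES-2, 9.41 and 8.50 in OVCAR-3, then 6.23 and 9.26 in SKOV-3. MIR3689E read 8.20 and 8.15, 8.08 and 7.26, and 4.98 and 7.95 in the same order. For both, the low array was again the SKOV-3 control, by 2.26 and 2.28. MIR3689D2 read 8.80, 8.47, 8.85, 8.07, 6.12 and 8.79, and MIR3689F 8.48, 8.37, 8.42, 7.76, 6.10 and 8.49 over the 6 arrays in that order. The SKOV-3 difference of these 5 loci ran from 2.39 in MIR3689F to 3.02 in MIR3689B, which is 5.23-fold to 8.13-fold, and ranked between 3 and 14 of 8620 genes. In OVCAR-3 the same 5 loci read lower after miR-135a-3p, with differences from −0.66 in MIR3689F to −0.91 in MIR3689B.

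**Figure D1:**
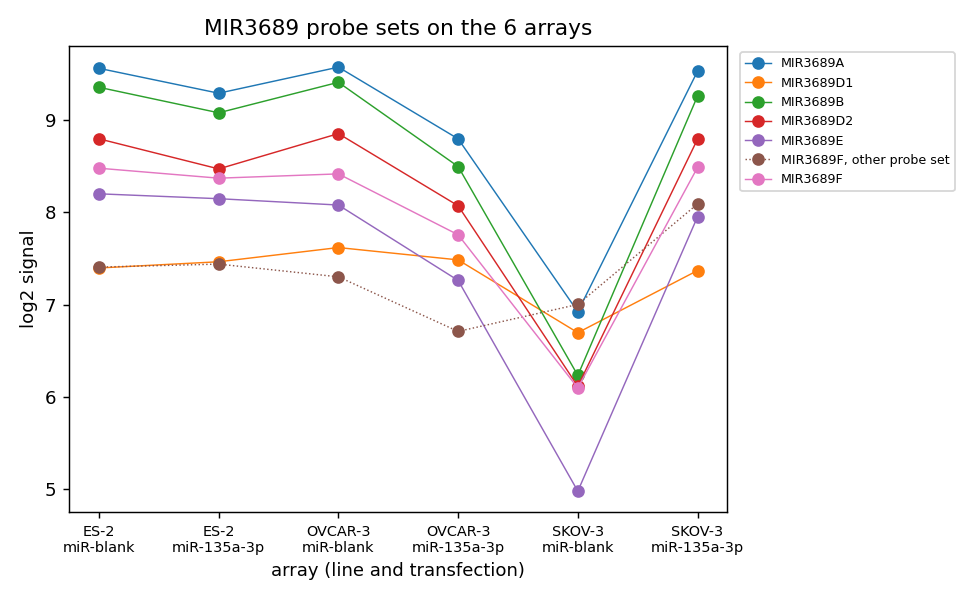
Log2 signal (vertical axis) of the 7 MIR3689 probe sets on the 6 arrays (horizontal axis). Each colour is a probe set, thin lines join its values, and the dotted line is the probe set of MIR3689F that was not kept. The SKOV-3 miR-blank array was the lowest in the 6 kept probe sets, with MIR3689E at 4.98.

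MIR3689D1 and the other probe set of MIR3689F did not share the size of this drop. MIR3689D1 read 7.40, 7.46, 7.62, 7.49, 6.70 and 7.37, a SKOV-3 difference of 0.67, although its hairpin is 91.2% identical to that of MIR3689D2 over 80 aligned columns. The probe set of MIR3689F that was not kept read 7.41, 7.44, 7.30, 6.71, 7.003 and 8.09, so its SKOV-3 control array was not the lowest. Over the 3 lines limma called none of the family: it gave MIR3689A a mean log2 difference of 0.52 ± 1.82 (SD, n = 3, 95% interval −0.93 to 1.97, adjusted p 0.999) and MIR3689E 0.70 ± 2.002 (SD, n = 3). Without SKOV-3 the mean turned to −0.52 in MIR3689A, −0.59 in MIR3689B, −0.55 in MIR3689D2, −0.43 in MIR3689E, −0.38 in MIR3689F and −0.03 in MIR3689D1. With 1 array per condition, a low array cannot be told apart from an effect of either transfection in SKOV-3, miR-blank or miR-135a-3p. The copies are alike in sequence and may share RNA on the array, so their values are uncertain one by one and are not independent measurements. Of all 8620 genes tested, 8 lay at least 1.5 below every other array on the SKOV-3 control array. On the same array 19 genes, 0 of them hairpin loci, lay at least 1.5 above every other array. Each of the other arrays had 0 to 9 such genes in either direction. The 8 low genes were the 5 MIR3689 loci, the antisense RNA VPS9D1-AS1, the epoxide hydrolase gene EPHX4 and the Notch ligand JAG1, named after their values were seen.

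As a check of the labels, the signal of MIR135A1 was 1.75 to 2.26 on the control arrays and 11.58 to 12.57 on the others. Of 8 listed ovarian carcinoma markers, 7 were named on the array. Keratin KRT18 read 9.36 to 10.47 on all arrays. PAX8 read above 8 in SKOV-3 only (8.80 and 8.12, against 4.12 to 4.80 elsewhere), and EPCAM was low everywhere (3.78 to 4.32). KRT7 read 6.75 and 6.37 in ES-2, 3.82 and 4.85 in OVCAR-3, then 6.40 and 4.87 in SKOV-3. MSLN read 5.62 and 7.02 in SKOV-3 and 5.19 to 5.53 elsewhere. WT1 read 5.59 to 7.15 and KRT8 5.29 to 6.75. Whether these values match the named lines was not tested. Of 3 endothelial markers listed, 2 were named on the array, with a summed signal of 8.18 to 8.84, and of 4 fibroblast markers 2, with 4.75 to 7.95; all 4 had means below 5. On the SKOV-3 miR-blank array, which was low in MIR3689, the fibroblast marker LUM read 6.05, against 2.79 to 3.96 on the other arrays. Of 4 leukocyte markers 2 were named, TYROBP and CD68, with a summed signal of 12.7 to 16.1. CD68 read 10.40 and 10.15 in ES-2, 7.68 and 7.29 in OVCAR-3, then 7.96 and 10.20 in SKOV-3. The part of these in the hairpin values was not tested. No 2 arrays held identical values.

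The 213 loci were mostly just above the threshold. A mean below 6 was held by 120, a mean of 6 to 7 by 59 and a mean of at least 7 by 34, with a median of 5.87 against 6.77 over all 8620 genes tested. MIR3135B (5.02), MIR298 (5.01) and MIR3187 (5.01) lay just inside the threshold, and MIR3156-3 (4.998), MIR3161 (4.997) and MIR1286 (4.996) just outside. These levels chose the loci and are a description. Levels are compared here only as signals of probe sets, since probes differ in how strongly they bind.

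MIR4737, inside the span of the HEAT repeat gene HEATR6 on chromosome 17 (chr17:60043025-60043105), had the highest mean, 10.63. It read 10.57 and 10.06 in ES-2, 11.07 and 10.61 in OVCAR-3 and 10.26 and 11.24 in SKOV-3, with no order of the transfections shared by the lines. MIR663B followed with 9.03 (8.76 to 9.45 over the arrays), and MIR3689A (8.94) and MIR3689B (8.64) came next. MIR4481, within the span of the kinase gene CAMK1D, had 8.54, MIR3907 8.46, MIR2909, within the apoptosis antagonist AATF, 8.28, and MIR4533 8.21. MIR3689D2 had 8.18, MIR4519, within BCL7C, 8.16, and MIR3143, which has no annotated gene over it, 8.13. MIR574 had 8.12, MIR4673, within the receptor gene NOTCH1, 8.09, MIR941-1, which has near-identical copies next to it, 8.03, and MIR3689F 7.93. MIR574 lay between 8.001 and 8.17 on the 6 arrays.

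Signal was higher in hairpins of higher GC content. RefSeq hairpins were found for 185 of the 213 loci and for 698 of the loci below the threshold. The median GC content was 60.9% (quartiles 54.7% and 66.3%) in the 185 and 45.4% (quartiles 40.2% and 53.0%) in the 698, while median lengths were 81 and 83 bases. Of 33 hairpins with at least 70% GC, 26 reached the threshold (78.8%). The share was 62.0% of 121 hairpins at 60 to 70% GC, 24.6% of 248 at 50 to 60%, 6.49% of 308 at 40 to 50% and 2.01% of 149 at 30 to 40%. Of 24 hairpins under 30% GC, 0 reached it, and their median signal was 1.48. Across the 883 hairpins the mean signal correlated with GC content at a Pearson r of 0.695 and a Spearman rho of 0.714, and on single arrays Pearson r lay between 0.657 (OVCAR-3 after miR-blank) and 0.701 (ES-2 after miR-blank). The hairpins share arrays and normalization, and GC content is that of the hairpin and not of the probes. Within the 185 loci alone r was 0.180, and the transfection differences of these loci had r with GC content of −0.026 in SKOV-3, 0.067 in OVCAR-3 and −0.019 in ES-2. The part of base composition in which loci passed the threshold was not tested.

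**Figure D2:**
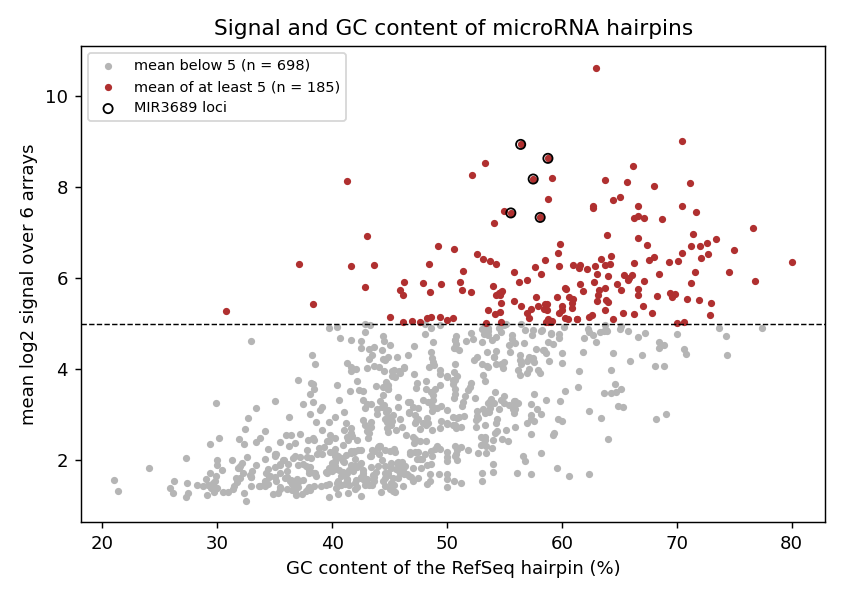
Mean log2 signal over the 6 arrays (vertical axis) against GC content of the RefSeq hairpin in percent (horizontal axis) for 883 hairpin loci. Red points have a mean of at least 5 (dashed line, n = 185), grey points lie below it (n = 698), and black rings mark MIR3689 loci.

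Of 51 listed loci of microRNAs known from ovarian and other carcinomas, 9 reached the threshold (17.6%), a share near the 19.9% of all 1071 hairpin symbols. The epithelial miR-200 group had 0 of 5, with means from 2.996 in MIR200A to 4.36 in MIR200B. The miR-29 hairpins had 0 of 4, the miR-183 cluster 0 of 3, and the related hairpins MIR135A2 and MIR135B 1.87 and 3.09. In the miR-17 to miR-92 clusters, 2 of 9 reached it, MIR106B (5.55) and MIR25 (5.50), which lie in the same cluster, while 6 loci of the cluster with MIR106A read 1.32 to 1.85. Among loci linked to growth and stress, MIR210, the hypoxia-induced microRNA, read 6.54 (6.47 to 6.67 over the arrays) and MIR21, a microRNA high in many cancers, 5.14. MIR27A (5.12) and MIR24-2 (5.72) of the miR-23a cluster reached the threshold and MIR23A (2.86) did not, although these 3 hairpins are cut from 1 primary transcript.

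Of 84 name families with 2 or more symbols, 4 had 2 or more loci above the threshold. Of 10 let-7 hairpins, 3 reached 5: MIRLET7E (5.95), MIRLET7A3 (5.75) and MIRLET7D (5.13), while MIRLET7I (4.92) lay just below and MIRLET7F2 read 1.41. MIRLET7A1, MIRLET7A2 and MIRLET7A3, which give the same let-7a arm, read 4.47, 2.49 and 5.75. let-7 microRNAs restrain growth and share their seed with miR-98, whose hairpin MIR98 read 5.81. The arms are printed to show the shared seed in capitals.
hsa-let-7a-5p: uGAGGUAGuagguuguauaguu
hsa-let-7d-5p: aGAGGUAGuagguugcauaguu
hsa-let-7e-5p: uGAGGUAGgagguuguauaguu
hsa-miR-98-5p: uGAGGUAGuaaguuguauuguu
Of 13 array hairpins with this seed, these 4 reached the threshold, and the lowest read 1.41. Of 6 miR-181 hairpins, MIR181D (6.75) and MIR181C (5.69) reached it, which neighbour each other on chromosome 19, and MIR181A1 read 1.76. MIR3135A (5.13) and MIR3135B (5.02) share only their number and have different seeds. Over all members with a mature arm, 13 seeds were shared by 2 or more loci, covering 26 loci.

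limma called no hairpin locus between the transfections. It called 0 of the 213 loci (0.0116% of 8620 genes were called, 1 gene, MIR135A1), and adjusted p values were all 0.999 or higher. At an unadjusted p under 0.05 there were 4 loci (1.88%), against 2.91% of all genes tested. In 52 loci the 3 lines had differences of 1 sign, 25 higher (9.54% of all genes tested were) and 27 lower (13.4% of all genes were). The median of the mean differences was 0.03 over the loci and −0.01 over all genes.

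MIR503, of the extended miR-16 family, led the loci with positive values in all lines when ranked by their smallest difference. It read 4.96 and 5.36 in ES-2, 5.08 and 5.28 in OVCAR-3, then 4.62 and 5.10 in SKOV-3. Each line was higher by 0.20 to 0.48, but the mean of 0.36 ± 0.15 (SD, n = 3, 95% interval 0.03 to 0.69) had a limma adjusted p of 0.999. MIR570, in the span of the host transcript MIR570HG, led the loci with negative values by the same rule. It read 6.20 and 5.92 in ES-2, 7.10 and 6.77 in OVCAR-3, then 6.22 and 5.63 in SKOV-3, a mean difference of −0.40 ± 0.17 (SD, n = 3, limma adjusted p 0.999). The 3 control arrays of MIR503 lay just below the 3 others, with 5.08 against 5.10 at the edge, while those of MIR570 overlapped the others. The other positive values with 1 sign in all lines were led by MIR4525 (0.72 ± 0.90, SD, n = 3, of which SKOV-3 gave 1.76), MIR342 (0.21), MIR4469 (0.38), MIRLET7D (0.38) and MIR631 (0.23). The negative ones were MIR3135B (−0.32), MIR3916 (−0.22), MIR346 (−0.30), MIR1299 (−0.31) and MIR21 (−0.42 ± 0.47, SD, n = 3, of which ES-2 gave −0.96).

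Single lines held a few larger differences, described with no test since each line has 1 array per transfection. In ES-2, 2 loci were at least 2-fold higher (0.162% of all genes were) and 0 lower (0.51% of all genes). MIR130B read 4.53 and then 5.87, a difference of 1.34, and MIR891A, of a cluster on the X chromosome, 6.69 and 7.76 (1.07). MIR663B (0.69) followed, and MIR5047 (−0.99), MIR21 (−0.96) and MIR4632 (−0.58) were lowest. In OVCAR-3, 1 locus was at least 2-fold higher (0.29% of all genes) and 0 lower (0.383%). MIR3621, in the span of LRRC26, read 3.52 on the control array and 5.77 on the other (2.24), against 5.42 to 6.25 on the 4 arrays of the other lines. The miR-blank array of OVCAR-3 was thus the low one, and without OVCAR-3 the mean difference of MIR3621 was −0.08. MIR4526 and MIR194-2 (0.72 each) followed.

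In SKOV-3, 6 loci were at least 2-fold higher (2.34% of all genes were) and 3 lower (1.66% of all genes), 9 in all and 4 without the MIR3689 family. MIR4525, in the span of the small GTPase gene RAB40B, read 8.48 and 10.24, the only higher one outside MIR3689. MIR4324, in the span of SLC6A16, read 7.09 and 5.81 (−1.28), MIR1224 5.36 and 4.15 (−1.21), and MIR24-2 7.04 and 5.84 (−1.20). The SD of the differences over the loci was 0.56 in SKOV-3, 0.35 in OVCAR-3 and 0.29 in ES-2, against 0.48, 0.30 and 0.30 over all genes.

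**Figure D3:**
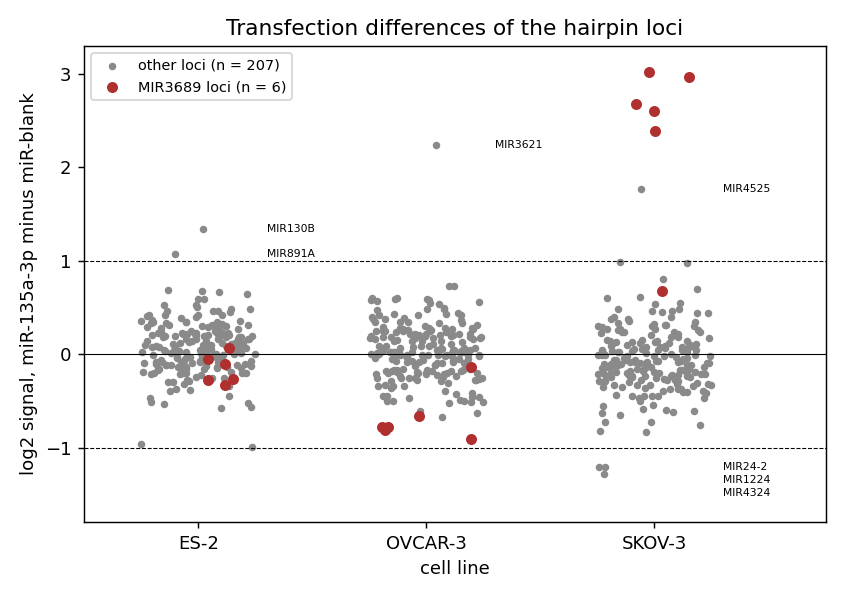
Log2 signal after miR-135a-3p minus that after miR-blank (vertical axis) for the 213 hairpin loci in each line (horizontal axis, points spread sideways for visibility). Red points are the 6 MIR3689 loci, grey points the other 207, and dashed lines mark 2-fold; labels to the right name grey loci past 2-fold. In SKOV-3, 5 MIR3689 loci lie between 2.39 and 3.02.

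Few hairpin loci differed between the lines. With the transfection as a block, and requiring 2-fold besides an adjusted p under 0.05, limma called 6 of 213 loci between ES-2 and OVCAR-3 (2.82%, against 16.5% of all genes tested). Of these 1 was higher in ES-2 (8.65% of all genes were) and 5 were lower (7.82%). Against SKOV-3, ES-2 had 5 called loci (2.35%, against 12.1% of all genes), 2 higher (4.85%) and 3 lower (7.29%). OVCAR-3 had 8 against SKOV-3 (3.76%, against 14.6%), 5 higher (5.6%) and 3 lower (8.96%). At an unadjusted limma p under 0.05 the 3 comparisons had 30, 22 and 23 loci (14.1%, 10.3% and 10.8%), against 40.7%, 36.3% and 38.6% of all genes. In all, 11 loci were called, 4 of them in 1 comparison, 6 in 2 and 1 in all 3. Of these, 3 (MIR196B, MIR21 and MIR3939) reached a mean of 5 only through the line where they were highest and had to differ, so their values are given without a test, although the counts include them. Among loci with a mean of 5 to 6 the shares were 1.67%, 0.833% and 2.5%, against 17.9%, 12.8% and 14.4% of other genes at that level. At 6 to 7 they were 5.08%, 3.39% and 5.08%, against 21.3%, 15.4% and 18.6%. At 7 and over they were 2.94%, 5.88% and 5.88% of 34 loci, against 13.55%, 10.4% and 12.9%. The median range over the 6 arrays was 0.59 in the loci and 0.83 in all genes, and 85.0% of the loci and 61.1% of all genes stayed within 1 log2 unit. The 2 arrays of a line also differ in transfection; no source used here tells whether their cultures were separate, so p-values measure only the spread between these arrays, which may be technical.

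MIR4521, which overlaps the serine tRNA gene TRS-GCT4-3 on chromosome 17 (chr17:8186945-8187004), had the largest difference of the called loci and was called between all lines. It read 8.64 and 8.48 in OVCAR-3, 6.19 and 5.97 in ES-2 and 4.11 and 4.27 in SKOV-3, with no overlap of any lines. OVCAR-3 minus SKOV-3 was 4.37 ± 0.18 (SE, limma adjusted p 4.46e-05). The SKOV-3 signals were near the array medians, so no fold is given. ES-2 minus SKOV-3 was 1.89 (limma adjusted p 0.00105). Averaged over its probe sets, MIR4521 had a mean of 4.15 and was not tested, so these calls rest on its brighter probe set.

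Of the 5 loci that ES-2 had at a lower level than OVCAR-3, 4 read higher in OVCAR-3 than in either other line. MIR196B, which lies between HOXA genes at chr7:27169480-27169563, read 3.78 and 4.01 in ES-2, 6.88 and 6.63 in OVCAR-3, then 4.22 and 4.67 in SKOV-3. The 4 arrays outside OVCAR-3 had a mean of 4.17, and the signal was below the array median in ES-2. The antisense RNA HOXA10-AS, which overlaps it, read 5.73 and 5.29 in ES-2, 7.11 and 7.16 in OVCAR-3, then 6.13 and 6.27 in SKOV-3, so OVCAR-3 was the highest for both. MIR324, on chromosome 17 opposite the lipid oxidation gene ACADVL, read 7.36 and 7.34 in OVCAR-3, against 5.46 to 5.83 in the other lines (OVCAR-3 minus SKOV-3 1.70 ± 0.19, SE, limma adjusted p 0.00136). MIR3143 read 9.51 and 9.12 in OVCAR-3 and 7.23 to 7.93 elsewhere. For MIR570, OVCAR-3 minus SKOV-3 was 1.006 (limma adjusted p 0.00746). Their mature arms have unlike seeds, in capitals.
hsa-miR-4521: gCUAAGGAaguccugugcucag
hsa-miR-196b-5p: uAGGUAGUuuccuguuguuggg
hsa-miR-324-5p: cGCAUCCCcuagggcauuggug

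Loci high in SKOV-3 included MIR21 and MIR4525. MIR21 read 6.15 and 6.01 in SKOV-3, 5.38 and 4.42 in ES-2 and 4.54 and 4.38 in OVCAR-3, so SKOV-3 lay above both other lines on every array. The 4 arrays outside SKOV-3 had a mean of 4.68. VMP1, the autophagy gene whose span holds MIR21 on the same strand, read 11.63 and 11.52 in SKOV-3, 10.65 and 10.34 in ES-2 and 10.81 and 11.07 in OVCAR-3, so SKOV-3 was the highest there too. MIR4525 read 6.39 to 6.88 in ES-2 and OVCAR-3, below both SKOV-3 arrays (ES-2 minus SKOV-3 −2.57 ± 0.39, SE, limma adjusted p 0.00604). MIR24-2 was lower in OVCAR-3 (5.28 and 5.24) than in SKOV-3, where 1 array was high (7.04 and 5.84), by −1.18 with a limma adjusted p of 0.0327. MIR4324 was lower in ES-2 (4.69 and 5.20) than in SKOV-3 (7.09 and 5.81) or OVCAR-3 (7.19 and 6.99). MIR3939 read 5.85 and 5.70 in ES-2, 4.07 and 4.68 in OVCAR-3, then 5.22 and 4.68 in SKOV-3, and the 4 arrays outside ES-2 had a mean of 4.66.
hsa-miR-21-5p: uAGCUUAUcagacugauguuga
hsa-miR-4525: gGGGGGAUgugcaugcugguu

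**Figure D4:**
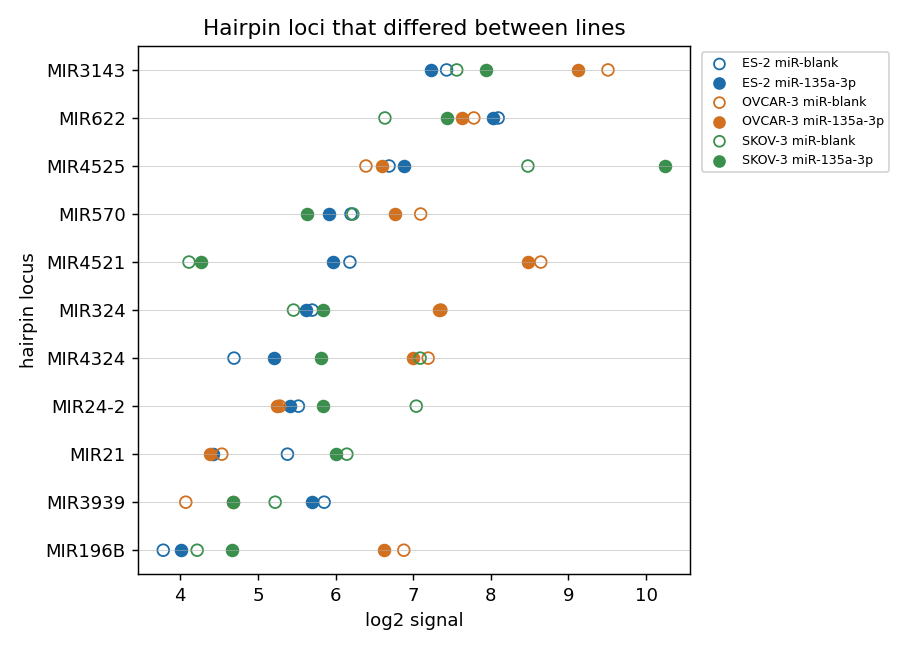
Log2 signal (horizontal axis) of the 11 hairpin loci called between lines (vertical axis). Open circles are miR-blank and filled circles miR-135a-3p arrays, coloured by line; MIR4521 runs from 4.11 in SKOV-3 to 8.64 in OVCAR-3.

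MIR622 read 8.10 and 8.03 in ES-2, 7.78 and 7.62 in OVCAR-3, then 6.64 and 7.44 in SKOV-3. ES-2 minus SKOV-3 was 1.03 (limma adjusted p 0.0355). The locus lies in the keratin 18 pseudogene KRT18P27 on chromosome 13. KRT18 itself read 10.47 and 10.37, 10.26 and 10.14, and 9.36 and 9.95 on the same arrays, and the arrays stood in the same order for both. Whether KRT18 RNA reaches the MIR622 probes was not tested.
hsa-miR-622: aCAGUCUGcugagguuggagc
With 1 array left out, 7 of the 11 loci lost a call, and MIR4521, MIR324 and MIR4525 kept theirs, as did MIR196B, which had to differ. Without the SKOV-3 miR-blank array the difference of MIR622 was 0.57 (limma adjusted p 0.0517). That of MIR4324 was −0.79 (limma adjusted p 0.0429), and that of MIR24-2 against OVCAR-3 −0.61 (limma adjusted p 0.0361), all under 2-fold. The loci that lost a call include MIR3939 and MIR21, which also had to differ, so only their differences are given. Without the OVCAR-3 miR-blank array, the difference of MIR3939 between ES-2 and OVCAR-3 was 0.92. Between OVCAR-3 and SKOV-3 that of MIR21 was then −1.42. For MIR570 and MIR3143, whose calls were lost, it was 1.06 and 1.33. Without the ES-2 miR-135a-3p array, ES-2 minus SKOV-3 was −0.77 for MIR21, under 2-fold, and without the ES-2 miR-blank array it was −0.88 for MIR4324 (limma adjusted p 0.185). Without 1 array at a time, the number of called loci in each comparison moved in both directions. Against SKOV-3 it was lowest without an OVCAR-3 array and highest without the SKOV-3 miR-135a-3p array. No share over all genes is given for these counts, so their changes are not read as a trait of the loci.

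Overlapping genes were a common feature. Of the 213 loci, 175 overlapped another RefSeq gene and 80 overlapped a gene that was tested, in 82 pairs, 58 of them known to be on the same strand. Over the 3 line comparisons, hairpin and gene differed in the same direction in 137 of 246 cases (55.7%), and in 100 of 174 on the same strand (57.5%). The cases are not independent, since each pair enters all 3 comparisons and some pairs share a gene. Where the gene differed by at least 2-fold, the direction was shared in 19 of 32 cases. The hairpin also reached 2-fold in 3 of the 32, those of MIR196B, MIR21 and MIR3621, of which MIR196B and MIR21 had to differ. The median size of the line difference was 0.16 in the hairpins and 0.35 in the genes. LRRC26, whose span holds MIR3621, read 7.25 and 7.55 in OVCAR-3 and 5.21 to 5.69 elsewhere. MIR3621 was low on the OVCAR-3 miR-blank array only, so its lower OVCAR-3 mean rests on 1 array. HEATR6, AATF, BCL7C and NOTCH1, whose spans hold 4 of the 15 brightest loci, were not called between any lines by limma, and neither were these loci. CAMK1D, whose span holds MIR4481, another of these brightest loci, read 6.40 and 6.83 in SKOV-3 and 4.05 to 5.11 elsewhere, so it reached a mean of 5 through SKOV-3. CAMK1D therefore had to differ, and its values are given without a test. MIR4481 was not called between any lines.

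Among genes of the microRNA pathway, limma called none between the transfections. It called 0 of 5 tested Microprocessor and export genes, 0 of 3 loop binding and tailing genes, 0 of 7 loading and silencing genes and 0 of 4 host transcripts, with median differences of −0.22, −0.10, −0.05 and −0.06. Against this, the median over all genes was −0.01, and 0.0116% of all genes were called. XPO5, which exports hairpins from the nucleus, read 8.99 and 9.08 in ES-2, 8.43 and 8.11 in OVCAR-3, then 8.93 and 8.77 in SKOV-3. DGCR8, the RNA-binding partner in the Microprocessor, read 5.99 to 6.70 on all arrays. Between lines, where 2-fold was also required, limma called 0 Microprocessor, export, loop binding or tailing genes. XPO5 was higher in ES-2 than OVCAR-3 by 0.76 (limma adjusted p 0.0214), which is under 2-fold. Of all genes tested, 16.5%, 12.1% and 14.6% were called in the 3 line comparisons, in the order used above. Lists of 5, 3 and 7 genes are too short to show a share above or below these. Among 7 loading and silencing genes, TNRC6B, a partner of Argonaute in silencing, read 8.63 and 8.55 in OVCAR-3 and 7.31 to 7.47 elsewhere. OVCAR-3 minus SKOV-3 was 1.21 (limma adjusted p 0.00316), and ES-2 minus OVCAR-3 was −1.16 (limma adjusted p 0.00304). The exonuclease gene XRN1 was higher in ES-2 than OVCAR-3, by 1.02 (limma adjusted p 0.0162). PAN2, of a deadenylase, read 7.71 and 7.69 in SKOV-3 and 6.41 to 6.81 elsewhere. Of 26 host transcripts on the array, 4 had a mean of at least 5. Of these, MIR210HG read 5.86 and 6.37 in ES-2, 4.52 and 4.76 in OVCAR-3, then 5.09 and 4.68 in SKOV-3. It reached a mean of 5 only through ES-2 and had to differ, so its values are given without a test. Its hairpin MIR210 read 6.49 and 6.67 in ES-2 and 6.47 and 6.49 in OVCAR-3.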

How the data were processed

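Total RNA of 6 samples was labelled with a kit for whole transcripts, as the labels' protocols state. The deposited values are log2 signals, 1 column per array. The submitters' processing notes name Transcriptome Analysis Console 3.0, Affymetrix Expression Console 1.4 and RMA with no role or order, and the genome build is not given in the sources used here. RMA as usually run equalises array distributions, which would remove a shift shared by most probe sets.

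Of 53617 probe sets, 16098 had 1 gene symbol in the platform annotation, for 14884 symbols; each symbol kept its brightest probe set by mean. Genes with a mean of at least 5 (8620) were tested with limma 3.58.1 in R 4.3.3 (lmFit, eBayes, two-sided, Benjamini-Hochberg), over all of them. The line was the block for transfections, because both arrays of a number come from the same line. Over all genes tested, the correlation of their deviations from group means was 0.759 for SKOV-3, 0.910 for OVCAR-3 and 0.904 for ES-2. Over the hairpin loci alone it was lower, 0.218 for SKOV-3, 0.542 for OVCAR-3 and 0.501 for ES-2. The transfection was the block for lines, where 2-fold was also required. Sequences and overlaps came from RefSeq (GRCh38.p14): 201 loci matched, by Entrez identifier. Genes over a locus were found from gene spans, not exons. The fits were tested on simulated data.

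The loci and lists were chosen with earlier results of these data known. Named were the MIR3689 family, the 15 highest loci, called loci (5 each way per comparison), the 6 highest and 6 lowest by smallest difference among loci of 1 sign, the 3 highest and 3 lowest of each line, families with 2 or more loci, and 3 loci on each side of the threshold. Other names were chosen after their values were seen. Alternatives were the fit without a block, other filters, all probe sets, quantile normalization, equal medians, an intensity trend, mean probe sets, left-out lines, and, added after seeing the data, left-out arrays and the counts without MIR3689.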

Additional observations from a re-analysis of the deposited data

Results flagged for a closer look

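For 8 loci, 1 line had a positive and another a negative transfection difference, both past 1.5-fold, a limit set after the values were seen. The difference between the lines was not tested, since each has 1 array per transfection. No share over all genes is given for this rule, so the count is not read as a trait of the loci. In the MIR3689 family the log2 difference was −0.78 in OVCAR-3 and 2.60 in SKOV-3 for MIR3689A, −0.91 and 3.02 for MIR3689B, −0.78 and 2.68 for MIR3689D2, −0.82 and 2.97 for MIR3689E and −0.66 and 2.39 for MIR3689F. Outside it, SKOV-3 had 0.70 and OVCAR-3 −0.67 for MIR3620, SKOV-3 had −0.82 and OVCAR-3 0.60 for MIR3922, and SKOV-3 had −0.63 and ES-2 0.64 for MIR4754.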

How the results depend on the processing

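The number of hairpin loci called between transfections stayed 0 under all 11 alternatives, with no replicate block (0) included, and each line left out gave 0. Between lines, no minimum fold gave 12 loci for ES-2 against OVCAR-3 and 10 for ES-2 against SKOV-3, and all probe sets gave 3 for ES-2 against SKOV-3. A mean of at least 6, which leaves fewer loci to test, gave 5 for OVCAR-3 against SKOV-3. With 1 array left out, counts ran from 4 to 9, 3 to 12 and 4 to 15 for these 3 comparisons, and the lone array of a line was taken to vary like the others. The number of loci was 387 at a mean of at least 4 and 93 at a mean of at least 6, and 208 to 227 with a line left out. At 1.5-fold, 27 loci passed in SKOV-3, 15 in OVCAR-3 and 10 in ES-2. No share over all genes is given at 1.5-fold, with no minimum fold or with 1 array left out. The same holds for all probe sets and a mean of at least 6, so these counts describe the loci alone. The mean over probe sets gave 1 in ES-2, and without the MIR3689 family SKOV-3 had 4. The shared direction with the overlapping gene was 80% of the 5 cases with a 2-fold hairpin difference. The 4 that shared it were cases of MIR196B and MIR21. Both loci reached a mean of 5 only through 1 line and had to differ, so no conclusion is drawn from this share. With 1 line left out, the mean transfection difference ran from −0.52 (without SKOV-3) to 1.17 (without OVCAR-3) in MIR3689A, −0.59 to 1.37 in MIR3689B, −0.033 to 0.37 in MIR3689D1, −0.55 to 1.17 in MIR3689D2, −0.43 to 1.46 in MIR3689E and −0.38 to 1.14 in MIR3689F. That of MIR3621 ran from −0.079 (without OVCAR-3) to 1.17 (without SKOV-3). The cause was not tested. The number of arrays limits the precision, and signal over background is unknown.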
